A study of Oryza sativa with 24 samples.

Results

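Seed maturation in plants is directed by a small set of transcription factors. VP1 of cereals, named for the viviparous maize mutant, carries a B3 DNA-binding domain, and its Arabidopsis counterpart is ABI3. It acts with abscisic acid (ABA) to turn on the storage and desiccation genes of the late embryo and to hold back germination. LEC1-type genes encode B subunits of the CCAAT-binding factor NF-Y and act earlier in embryo development in Arabidopsis. Embryo maturation regulators of both kinds were looked up here in rice seeds, by the gene IDs of 5 members. OsVP1 (OS01G0911700), LFL1 (OS01G0713600) and IDEF1 (OS08G0101000) were listed in all 6 tables. The LEC1-type genes NF-YB7 (OS02G0725700) and NF-YB9 (OS06G0285200) were listed in none. The members found were thus 3 of 5, among 17780 genes listed in either tissue.

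The samples were embryo and endosperm of field-grown wild-type seed of 2 japonica rice accessions, Gopum, which sprouts readily before harvest, and Jowoon, which resists sprouting. Sampling took place 30, 45 and 60 days past heading, and the labels give 24 mRNA libraries in 12 groups of 2. RNA was pooled from embryos or endosperms of several plants per the study's methods, which name more replicates than the labels. The values used are the authors' mean log2 CPM (read counts relative to library size), 1 value per gene and tissue. This mean was the same in the tables of 30, 45 and 60 days, so it separates neither stages nor accessions and has no error. The authors' own comparisons of Jowoon with Gopum were not used. That contrast and the course over the stages were therefore not analysed here. Depth is unknown, and no difference below could be tested against replicate spread.

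OsVP1 had an authors' mean level of 5.97 log2 CPM in the embryo and 5.14 log2 CPM in the endosperm. These correspond to 62.8 and 35.2 CPM. In the embryo table, 83.7% of the 16897 listed genes had a lower mean, and in the endosperm table, 84.3% of 14049 did. OsVP1 was thus above the upper quartile of the list in both tissues. This is a rank of reads without correction for transcript length, so it does not order transcript levels.

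IDEF1 belongs to the same ABI3/VP1 family of B3 proteins and is known in rice as a regulator of the response to iron deficiency. Its authors' mean level was 5.19 log2 CPM (36.4 CPM) in the embryo and 4.14 log2 CPM (17.6 CPM) in the endosperm. A lower mean was found for 72.7% of listed genes in the embryo and for 69.8% in the endosperm.

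LFL1 is named after Arabidopsis LEC2 and FUS3, B3 regulators of embryo maturation, and is known in rice for repressing flowering when overexpressed. Its authors' mean level was 3.13 log2 CPM (8.78 CPM) in the embryo and 2.85 log2 CPM (7.20 CPM) in the endosperm. In contrast to the others, LFL1 lay under the median of each table, which was 3.87 log2 CPM in the embryo and 3.15 log2 CPM in the endosperm. A lower mean was found for 37.3% of embryo genes and 43.7% of endosperm genes.

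**Figure D1:**
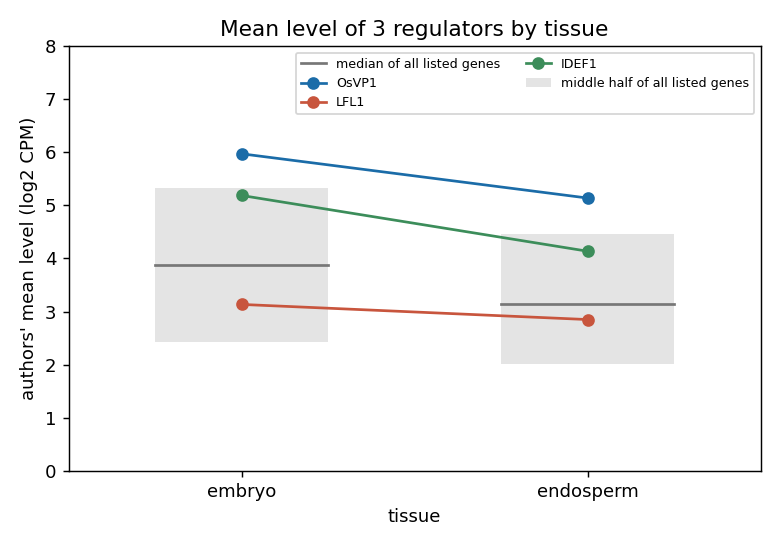
Authors' mean level (log2 CPM, vertical axis) of OsVP1, IDEF1 and LFL1 in embryo and endosperm (horizontal axis). Grey boxes span the lower to the upper quartile of all listed genes (2.43 to 5.33 in the embryo, 2.01 to 4.45 in the endosperm), and the grey line is their median. OsVP1 lies above the box in both tissues, IDEF1 in its upper part, and LFL1 under the median. Lines only join the values of 1 gene.

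For NF-YB7 and NF-YB9 no level can be given. The lowest mean listed was 0.05 log2 CPM in the embryo and 0.27 log2 CPM in the endosperm, and the authors' gene filter is not given in the sources used here. Not being listed does not show that a gene was without reads.

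The tissues were compared as the embryo mean minus the endosperm mean of each gene, in which transcript length cancels. Each tissue has its own tables and list of genes, with a summed CPM of 1026213 in the embryo and 1032593 in the endosperm. Whether the tissues were normalized together is not given in the sources used here. The difference was therefore read against that of all 13166 genes listed in both. The median gene was 1.32 log2 CPM higher in the embryo (quartiles 0.75 and 1.79), and 89.1% of the genes were higher there. The differences and ratios given next, as deposited, include this shift of all genes. OsVP1 was 0.83 higher in the embryo on the log2 CPM scale, a ratio of 1.78. IDEF1 was 1.05 higher, a ratio of 2.07, and LFL1 was 0.29 higher, a ratio of 1.22. None of the 3 reached the median difference. After the median difference was taken off, the values were -0.49 for OsVP1, -0.27 for IDEF1 and -1.04 for LFL1. A lower difference than theirs was found for 27.9% of genes for OsVP1, 36.2% for IDEF1 and 15.2% for LFL1. OsVP1 and IDEF1 thus lay within the quartiles of all genes, whereas LFL1 lay below the lower quartile.

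**Figure D2:**
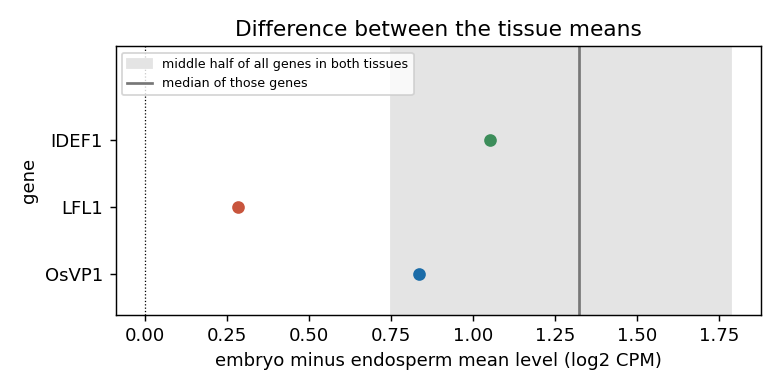
Embryo minus endosperm difference of the authors' mean level (log2 CPM, horizontal axis) for OsVP1, LFL1 and IDEF1 (rows). The grey band spans the quartiles of all genes listed in both tissues (0.75 to 1.79), the solid line is their median (1.32), and the dotted line marks equal levels. All points lie between equal levels and the median gene, and LFL1 lies to the left of the band.

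The make-up of the libraries differed between the tissues. The 10 genes with the highest means took 43.5% of the summed CPM in the endosperm and 11.1% in the embryo. The part of this in the shift of the median gene was not tested. The labelled tissues were checked with IDs chosen as markers. Of 11 endosperm IDs, all 11 were listed in the endosperm and 6 in the embryo. The embryo minus endosperm difference of these 6 ran from -7.60 to -4.19 on the log2 CPM scale. Their embryo means still ran from 4.99 to 9.28 log2 CPM, above the median of the embryo table, 3.87 log2 CPM. The 11 took 20.4% of the summed CPM in the endosperm and 0.113% in the embryo. Among the 5 not listed in the embryo was OS07G0182000, a basic leucine zipper activator of grain filling, at 5.66 log2 CPM in the endosperm. The highest endosperm mean of these 5 was 8.79 log2 CPM. The lowest lay under the lower quartile of the endosperm table, 2.01 log2 CPM. Among all 14049 genes listed in the endosperm, 883 were likewise not listed in the embryo. Of 4 embryo IDs, 3 were listed in both tissues, with means of at least 8.44 log2 CPM in the endosperm. Their embryo minus endosperm differences on the log2 CPM scale were 0.06 for OS03G0699000 (an oleosin), 0.63 for OS04G0546500 (an oleosin) and 3.16 for OS05G0349800 (Osem). Relative to the median gene only OS05G0349800 of these 3 was higher in the embryo, and the median of the 3 was -0.69. As deposited all 3 were higher in the embryo, as were 89.1% of all genes listed in both tissues. Relative to the median gene, these 3 IDs thus did not set the embryo apart as a list. The fourth, OS03G0727000, a Knotted1-like homeobox gene of the shoot apical meristem, was listed in the embryo only, at 4.46 log2 CPM. Of all 16897 genes listed in the embryo, 3731 were likewise not listed in the endosperm. The embryo IDs took 0.588% of the summed CPM in the embryo and 0.246% in the endosperm. The presence of embryo RNA in the endosperm libraries, or of these transcripts in endosperm cells such as the aleurone, cannot be told apart here. Endosperm RNA in the embryo libraries, as a source of the endosperm IDs listed there, was likewise not tested.

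A list of 12 IDs chosen as partners and targets of VP1 was set beside the members. All 12 were listed in both tissues and higher in the embryo as deposited, by 0.06 to 4.11 on the log2 CPM scale, where 89.1% of all genes were higher. Of the 12, 3 were the embryo marker IDs listed in both tissues above. The median difference of the 12 was 1.86, against 1.32 for all genes. Relative to the median gene, which by definition splits all genes evenly, 7 of the 12 were higher in the embryo. OsTRAB1 (OS08G0472000), an ABA-responsive bZIP factor that binds VP1 in rice, had 4.34 log2 CPM in the embryo and 2.46 log2 CPM in the endosperm. Its difference of 1.89 was above that of 79.7% of genes, unlike those of OsVP1 and IDEF1. Another ID of the list, OS01G0859300 (ABI5), was close to OsVP1, with a difference of 0.90 that was above that of 30.0% of genes. OsDOG1L-3 (OS01G0306400), which delays germination, had 6.47 log2 CPM in the embryo and 4.29 log2 CPM in the endosperm, a difference of 2.17 that exceeded that of 89.3% of genes. OsSdr4 (OS07G0585700), a dormancy gene that depends on VP1, had 3.96 log2 CPM in the embryo and 3.55 log2 CPM in the endosperm. Both lay above the median of their table, unlike those of LFL1. Its difference of 0.41 was above that of 17.3% of genes, near the 15.2% of LFL1. These are single means, so no difference between OsVP1 and its partners was tested.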

How the data were processed

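Messenger RNA of rice embryo and endosperm was sequenced. The authors' methods name Trimmomatic for trimming, HISAT2 for mapping to the IRGSP genome, featureCounts for counting, and edgeR for comparing the accessions, with CPM adjusted by trimmed means of M-values. The deposited tables hold the authors' mean log2 CPM, which was used here, and the fold changes, p-values and FDR of the authors' own comparisons, which were not. With no values per library, the planned count test was not run.

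Members, lists and alternatives were chosen with earlier results of these data known. Named were all members and, of the lists, genes whose IDs occur in the study's text or supplement. The supplement includes genes from the authors' comparisons of the accessions. Values are also given for OS01G0859300, OS03G0699000, OS04G0546500 and OS05G0349800, which were not found there. Their names come from the choice of the lists. Of 17780 IDs, 0 matched the RefSeq gene table, although 3 of the 5 member names occurred in it. Matching by name was not pursued, and levels per coding length, promoters and lists by description were not made. Percentiles, differences between tissue means and their centring on the median of all genes, or of 5 equal bins of mean level, were computed with pandas 2.3.3. The centring was tested on simulated data, and the percentile on a small fixed example. No significance test was run.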

Additional observations from a re-analysis of the deposited data

How the results depend on the processing

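The level of each member was the same in the tables of 30, 45 and 60 days, and a minimum of 0 log2 CPM removed no gene. Among genes listed in both tissues, the share with a lower mean was 79.1% in the embryo and 83.6% in the endosperm for OsVP1, 65.1% and 68.7% for IDEF1, and 21.8% and 41.7% for LFL1. Each embryo minus endosperm difference lay between 0 and the median of all genes, so taking that median off turns it negative by construction, at -0.49 for OsVP1, -0.27 for IDEF1 and -1.04 for LFL1. This restates their place under the median gene. With the median of genes in the same of 5 bins of mean level taken off, the values were -0.56, -0.33 and -1.14, so each member was also under the median of its own bin. No paired analysis was possible because the tables hold means over libraries. For the same reason no library was left out and no other count tool was run. Levels per coding length and promoter motifs were not run, since no lengths or sequences were used here.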
